A study of Mus musculus with 6 samples.

Results

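The 40 genes described here encode the ligands, antagonists, receptors and Smad proteins of the transforming growth factor beta (TGF-beta), activin and bone morphogenetic protein (BMP) pathways, and the Id factors that these pathways are known to control. The rule names gene symbols and sets no threshold on a measured value. The genes were chosen with earlier results of these data known, and all 40 had a row among the 22869 genes with a symbol. RNA sequencing measured transcript levels in the pituitary of female mice of a CD1 and C57BL/6 hybrid background, collected at 6 to 8 weeks of age. The cells had been sorted by flow cytometry into somatotropes, which secrete growth hormone, and lactotropes, which secrete prolactin, with 3 libraries of each titled as biological replicates 1 to 3. Levels are FPKM, a fragment count corrected for transcript length and library depth, and values are listed in the order of replicates 1, 2 and 3. The sources used here do not say which marker the sort used or how many animals went into a library. The p-values below therefore reflect only how these libraries vary.

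Ligands of this family are secreted dimers that bring together type I and type II receptor kinases at the cell surface. The type I receptor then phosphorylates receptor Smads, Smad2 and Smad3 for TGF-beta and activin or Smad1 and Smad5 for BMP, which enter the nucleus with the common partner Smad4. In the anterior pituitary, activin is known to raise and inhibin to lower follicle-stimulating hormone output of gonadotropes, and TGF-beta is known to restrain lactotropes.

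The hormone transcripts matched the labels. Gh measured 84909, 19384 and 43379 FPKM in the somatotrope libraries against 3954, 6856 and 7623 FPKM in the lactotrope libraries. Prl measured 10464, 8709 and 24481 FPKM against 195325, 25171 and 148913 FPKM (two-sided exact permutation test over libraries, p = 0.1 for each of Gh and Prl, the smallest that 3 against 3 allow). Ghrhr was higher in every somatotrope library and Drd2, at 0.464 to 1.49 FPKM in somatotropes and 2.51 to 11.9 FPKM in lactotropes, in every lactotrope library. Most genes stood higher in replicate 1 of both types, by median-ratio factors of 1.70 and 1.70, than in the other 4 libraries (0.601 to 0.908). In lactotrope 3, 14.9% of tested genes had a value of 0 (0.232% to 2.95% elsewhere), so a 0 there is given as listed. Low values of olfactory receptor genes stepped in whole fragments in somatotrope 1 and lactotrope 1, at depths of 29300000 and 17600000 fragments, and the depth of the other libraries could not be read from the values. The libraries are bulk RNA, in which fewer cells of a type and less RNA per cell cannot be told apart.

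Across the 40 genes, 3 of the 4 Id transcripts were the most abundant and several named ligands and receptors were close to the lower limit of the data. Id2 and Id3 had the highest means over the 6 libraries, 35.9 and 23.6 FPKM, above 96.5% and 94.1% of all genes. Id4, Tgfbr1 and Smad4 came next, with Id4 at 13.7 and Smad4 at 12.6 FPKM, closer to each other than the spread of each over libraries. At the other end, Fst, Grem1, Bmpr1b, Bmp2, Acvr1b, Bmpr2 and Smad7 stayed under 1 FPKM in every library. With Bmp4, Acvr1c and Gdf15 these made up the 10 genes with a mean below 1 FPKM, which were not tested.

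**Figure D1:**
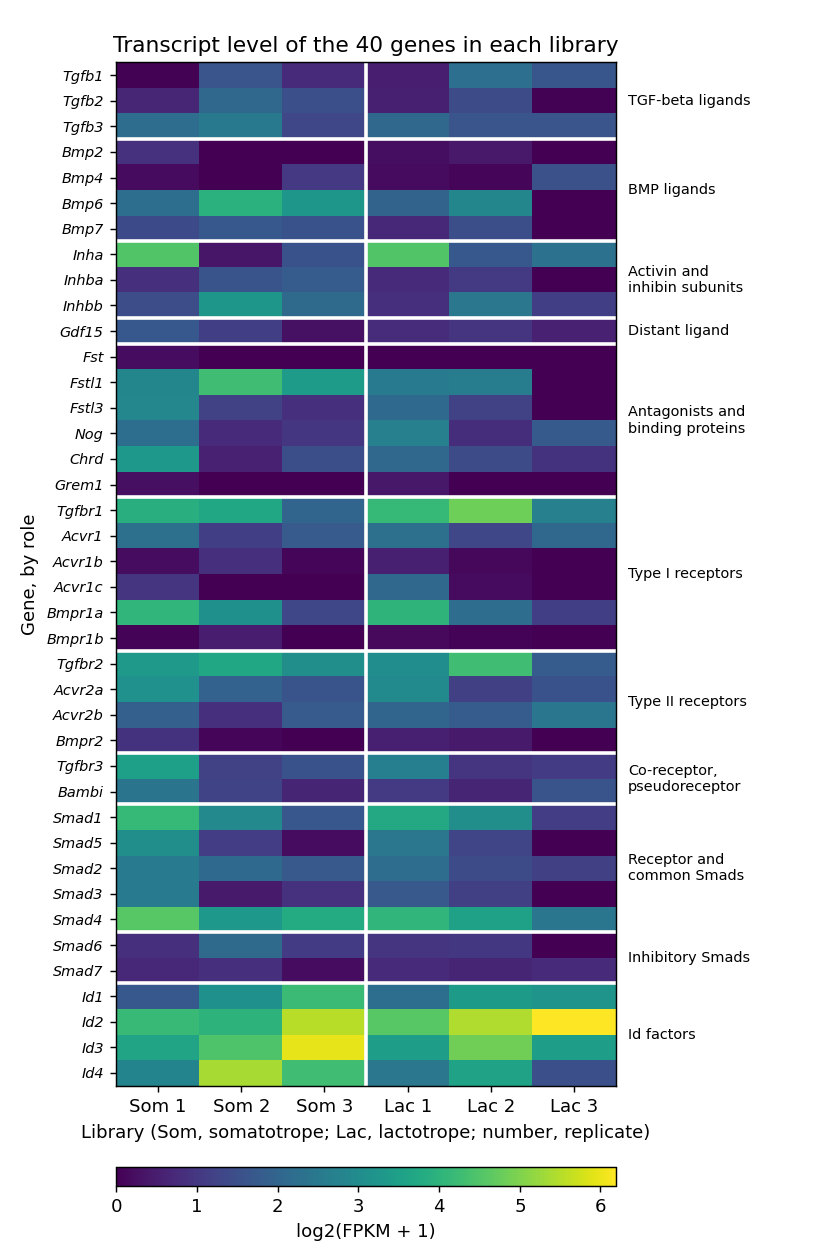
Heat map of log2(FPKM + 1) for the 40 genes (rows, grouped by role) in the 3 somatotrope (Som) and 3 lactotrope (Lac) libraries (columns, numbered by replicate). The Id rows are the brightest block, and Lac 3 has the most dark cells, with 8 of the tested genes listed at 0. The Smad1 to Smad5 rows are brightest in somatotrope 1 and lactotrope 1, as for 57.7% of all tested genes.

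The comparison of the sorted cell types asked which of these genes differed between somatotropes and lactotropes. None of the 30 tested genes passed limma's test on log2(FPKM + 1) at an adjusted p of 0.05, where 0% of the 11642 genes tested over the whole table passed. At an unadjusted p under 0.05 there was 1 gene, Fstl1, higher in somatotropes (0.507% of all tested genes), and none higher in lactotropes (0.455%). With the replicate number as a block there were again 0 adjusted calls, and at an unadjusted p under 0.05 there were Bmp6, Fstl1 and Id4 on the somatotrope side (7.17% of all tested genes) and Id2 on the lactotrope side (3.75%). With libraries weighted by how closely they followed the fit, no member passed either (0.0773% of all tested genes). Lactotrope 2 had a weight of 6.24 there, against 0.29 and 0.49 for lactotropes 1 and 3 and 0.35 to 2.25 for somatotropes. At an unadjusted p under 0.05 this weighted fit had Fstl1 and Id4 on the somatotrope side (5.64%). On the lactotrope side it had Tgfb1, Tgfbr1 and Id2 (5.23%), of which Tgfb1 and Tgfbr1 were highest in lactotrope 2. Block and weights together again called no member (0.369%), with Bmp6, Inhbb, Fstl1 and Id4 (6.54%) against Tgfbr1 and Id2 (4.97%) at an unadjusted p under 0.05.

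Direction within the replicate pairs gave more detail. Of the 30 tested genes, 12 were higher in somatotropes in all 3 pairs (22.9% of all tested genes), namely Tgfb2, Bmp6, Bmp7, Inhba, Inhbb, Fstl1, Fstl3, Bmpr1a, Acvr2a, Tgfbr3, Smad2 and Id4. The direction of Fstl3 in pair 2, at only 1.01 times, depends on scaling. So does that of Bmpr1a and Acvr2a in pair 3, at 1.23 and 1.05 times. Another 6 were higher in lactotropes in all 3 pairs (11.2% of all tested genes), namely Tgfb1, Inha, Nog, Tgfbr1, Acvr2b and Id2. Only Fstl1 had all 3 somatotrope libraries above all 3 lactotrope libraries (2.51% of all tested genes), and no gene had the opposite (1.15%). With 1 library left out fewer values have to separate, and the count is given beside the share of all tested genes. It was 9 genes without somatotrope 1 (14.3% of all tested genes), 1 without somatotrope 2 (7.11%), 3 without somatotrope 3 (9.06%), 5 without lactotrope 1 (24.2%), 10 without lactotrope 2 (9.85%) and 2 without lactotrope 3 (6.08%). The median difference over the 30 genes, somatotrope minus lactotrope, was 0.33 on the log2 scale, beside 0.18 over all tested genes. It was 0.22 beside 0.05 after median-ratio scaling. With a library left out, both medians moved: to -0.095 beside -0.125 without somatotrope 1, to 0.638 beside 0.384 without somatotrope 3, to 0.688 beside 0.584 without lactotrope 1 and to 0.121 beside -0.127 without lactotrope 3.

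**Figure D2:**
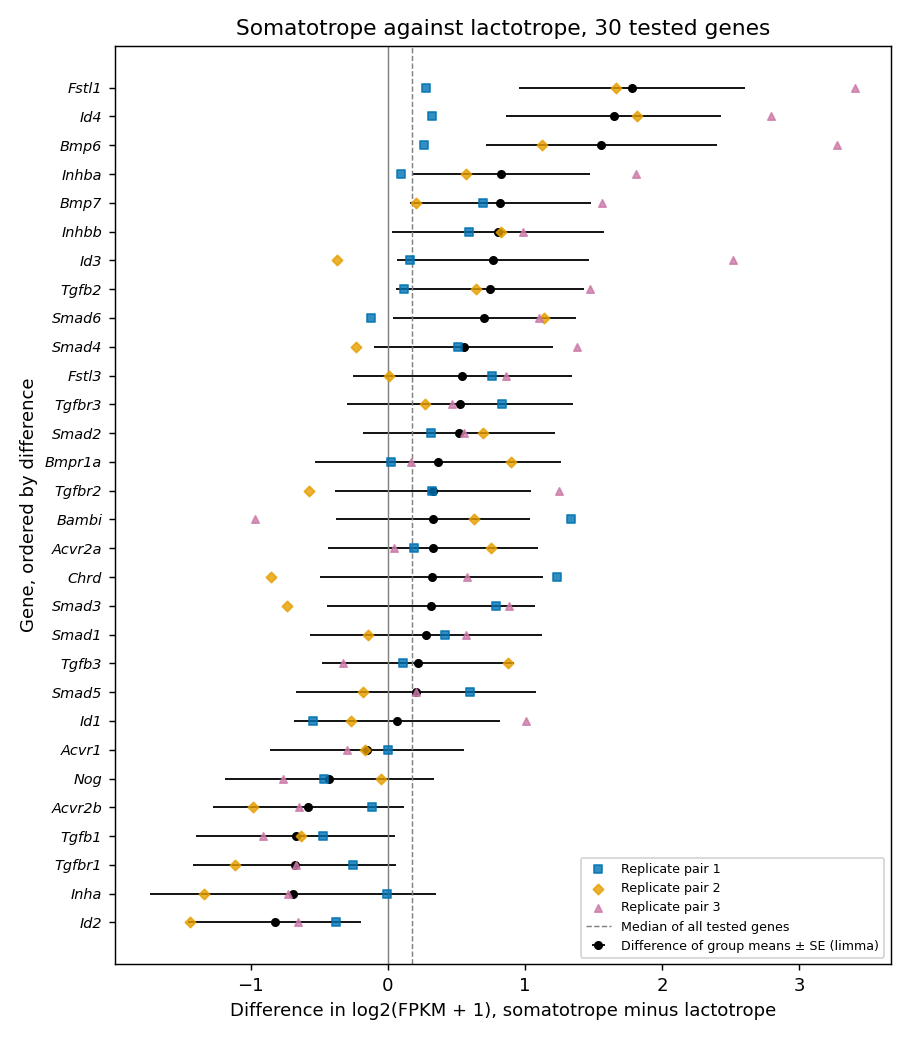
Difference in log2(FPKM + 1), somatotrope minus lactotrope, for the 30 tested genes: black points with bars are the difference of group means ± SE from limma, coloured symbols are the 3 replicate pairs, the solid line is 0 and the dashed line is the median over all tested genes. Fstl1, Id4 and Bmp6 lie farthest to the somatotrope side, Id2 farthest to the lactotrope side, and for those first 3 genes pair 1 lies closest to 0 and pair 3 farthest from it.

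Among the TGF-beta ligands, Tgfb1 and Tgfb2 leaned to opposite cell types. Tgfb1 measured 0.0326, 2.10 and 0.665 FPKM in the somatotrope libraries against 0.433, 3.80 and 2.13 FPKM in the lactotrope libraries. It was higher in lactotropes in each pair, 13.3, 1.81 and 3.20 times, although somatotrope 2 lay above lactotrope 1 and close to lactotrope 3. The 13.3 divides by only 0.0326 FPKM in somatotrope 1. On the log2(FPKM + 1) scale, Tgfb1 differed by -0.473, -0.631 and -0.911 in the 3 pairs, least in pair 1. Its log2 difference was -0.67 (SE 0.72, limma adjusted p = 1.00), and -0.29 without somatotrope 1 and -0.28 without lactotrope 2. Tgfb2 measured 0.579, 3.18 and 1.86 FPKM in the somatotrope libraries against 0.456, 1.68 and 0.0282 FPKM in the lactotrope libraries, higher in somatotropes in each pair with overlapping groups. Tgfb3, the most abundant of the 3 isoforms by mean, had no common direction across pairs, with means of 3.26 ± 1.64 FPKM over somatotrope and 2.48 ± 0.664 FPKM over lactotrope libraries (SD, n = 3).

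Of the 4 BMP ligands, Bmp6 was the main transcript, on mm9 chromosome 13 from 38437585 to 38591597 on the plus strand. It measured 3.67, 14.6 and 8.72 FPKM in the somatotrope libraries against 2.89, 6.15 and a listed 0 FPKM in the lactotrope libraries. Each somatotrope library exceeded its paired lactotrope library, but lactotrope 2 lay above somatotrope 1. The log2 difference was 1.56 (SE 0.84, limma adjusted p = 1.00, 0.362 to 1.00 over the alternatives), and 0.76 without lactotrope 3. Bmp7 followed the same order within pairs, with 1.60, 2.23 and 1.95 FPKM in somatotropes against 0.606, 1.80 and a listed 0 FPKM in lactotropes. Bmp4, the BMP best known from early pituitary development, was at or under 0.142 FPKM in 4 libraries and reached 1.03 and 1.90 FPKM in the replicate 3 libraries. Bmp2 reached 0.829 FPKM in somatotrope 1 and was listed at 0 in 3 libraries.

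Among the activin and inhibin subunits, Inha followed the replicates and the beta subunits leaned to somatotropes. Inha encodes the alpha subunit that turns activin beta subunits into inhibins, and lies on mm9 chromosome 1 from 75503652 to 75506929 on the plus strand. It measured 21.6, 0.288 and 1.96 FPKM in the somatotrope libraries against 21.7, 2.25 and 3.92 FPKM in the lactotrope libraries. The 2 replicate 1 libraries were nearly equal and far above the other 4, where the lactotrope library was the higher of its pair. The log2 difference between cell types was -0.69 (SE 1.04, limma adjusted p = 1.00), and it changed sign to 0.20 without somatotrope 2 and to 0.14 without lactotrope 1.

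Inhba and Inhbb encode the activin beta subunits, and Inhbb had the opposite replicate order to Inha. It measured 1.76, 8.68 and 3.41 FPKM in the somatotrope libraries against 0.826, 4.47 and 1.23 FPKM in the lactotrope libraries, and was higher in somatotropes 2.13, 1.94 and 2.78 times in the 3 pairs. This near-constant ratio within pairs stood beside groups that overlapped, since replicate 2 was highest and replicate 1 lowest in both cell types. Inhba, at 0.827, 2.06 and 2.51 FPKM in somatotropes and 0.705, 1.06 and a listed 0 FPKM in lactotropes, was also higher in somatotropes in each pair. The ratio of Inha to Inhbb within a library was 12.3 and 26.3 in somatotrope 1 and lactotrope 1, and 0.0331 to 3.19 in the other 4 libraries.

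Inha and the beta subunits are also known products of gonadotropes, so gonadotrope transcripts are given beside them. The gonadotrope markers did not share one order over the libraries. Lhb, the luteinizing hormone beta subunit, measured 2.15, 8.37 and 77.7 FPKM in the somatotrope libraries against 2.90, 5.91 and 15.8 FPKM in the lactotrope libraries, lowest in replicate 1 of both types, where Inha was highest. Fshb, the follicle-stimulating hormone beta subunit, measured 1.82, 0.451 and 19.1 FPKM against 4.91, 1.42 and 2.90 FPKM, above replicate 2 in replicate 1 of both types. Among lactotropes, Fshb, Cga, Gnrhr, Nr5a1 and Foxl2 were all highest in lactotrope 1, like Inha, with Cga at 739, 126 and 285 FPKM. Nr5a1 at 1.75 FPKM and Foxl2 at 0.495 FPKM in lactotrope 1 were the highest of the 6 libraries. Among somatotropes, all 6 markers were highest in somatotrope 3, where Inha was at 1.96 FPKM. The sum over the 6 gonadotrope markers, most of it Cga, was 377, 309 and 1780 FPKM for somatotropes and 753, 134 and 303 FPKM for lactotropes, with Gnrhr, Nr5a1 and Foxl2 listed at 0 in lactotrope 3. The part of gonadotropes in the subunit values was not tested. Gdf15, a stress-responsive distant member of the ligand family, was at 0.205 to 2.27 FPKM in somatotropes and 0.488 to 0.893 FPKM in lactotropes.

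The extracellular antagonists were dominated by Fstl1, a secreted follistatin-like glycoprotein, while follistatin itself was barely detected. Fstl1, on mm9 chromosome 16 from 37777141 to 37836602 on the plus strand, measured 6.20, 18.7 and 9.63 FPKM in the somatotrope libraries against 4.93, 5.21 and a listed 0 FPKM in the lactotrope libraries. The groups did not overlap, with somatotrope 1 closest to lactotrope 2. Its log2 difference of 1.78 (SE 0.82, limma adjusted p = 1.00, 0.254 to 1.00 over the alternatives) was the largest of the 30 tested genes, and was 0.92 without lactotrope 3. After equalizing the totals without Gh and Prl, or after quantile normalization, the groups of Fstl1 overlapped. Fst, which neutralizes activin, was at 0.146 FPKM in somatotrope 1 and listed at 0 in the other 5 libraries.

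The remaining antagonists were highest in replicate 1 of both cell types, as were 57.7% of all tested genes. Of those tested, only Fstl3 remained so after median-ratio scaling (23.5% of all tested genes). Fstl3, a relative of follistatin that binds activin, measured 6.32, 1.30 and 0.818 FPKM in the somatotrope libraries against 3.31, 1.28 and a listed 0 FPKM in the lactotrope libraries. Nog, which encodes the BMP trap noggin, was higher in lactotropes in each pair, at 3.74, 0.684 and 0.985 FPKM in somatotropes against 5.52, 0.741 and 2.37 FPKM in lactotropes. Chrd, encoding chordin, another BMP trap, had no common direction, with 8.84, 0.481 and 1.82 FPKM in somatotropes against 3.19, 1.67 and 0.884 FPKM in lactotropes. Grem1, another BMP antagonist, was at 0.188 and 0.311 FPKM in the 2 replicate 1 libraries and listed at 0 elsewhere.

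The receptor transcripts were led by the TGF-beta pair Tgfbr1 and Tgfbr2, with Bmpr1a as the main BMP type I receptor. Tgfbr1, on mm9 chromosome 4 from 47366177 to 47427796 on the plus strand, measured 13.7, 12.0 and 3.08 FPKM in the somatotrope libraries against 16.6, 27.2 and 5.48 FPKM in the lactotrope libraries. It was higher in lactotropes in each pair, 1.21, 2.26 and 1.78 times, with overlapping groups, and the log2 difference was -0.68 (SE 0.74, limma adjusted p = 1.00, 0.253 to 1.00 over the alternatives). That difference was -0.09 without somatotrope 3 and -0.21 without lactotrope 2. Tgfbr2, its type II partner, measured 9.19, 12.1 and 7.32 FPKM in the somatotrope libraries against 7.15, 18.6 and 2.49 FPKM in the lactotrope libraries, with no common direction across pairs. The ratio of Tgfbr1 to Tgfbr2 within a library was 1.49, 0.989 and 0.421 in somatotropes and 2.32, 1.46 and 2.20 in lactotropes. It was higher in the lactotrope library of every pair, with a small overlap between groups. This ratio was chosen after its values were seen.

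Bmpr1a and Acvr2a were highest in replicate 1 of both cell types, as were 57.7% of all tested genes (23.5% after median-ratio scaling, both still among them). Bmpr1a measured 15.7, 7.59 and 1.50 FPKM in the somatotrope and 15.4, 3.61 and 1.22 FPKM in the lactotrope libraries, nearly equal in pair 1. Acvr1, a type I receptor used by BMPs, had means of 2.49 ± 1.32 FPKM over somatotrope and 2.83 ± 1.22 FPKM over lactotrope libraries (SD, n = 3). Of the activin type II receptors, Acvr2a was higher in somatotropes in each pair (4.20 ± 3.09 against 3.29 ± 2.92 FPKM), but only 1.05 times in pair 3. The median-ratio factors of those libraries differed by more (0.799 for somatotrope 3, 0.601 for lactotrope 3), so the direction there depends on scaling. Acvr2b was higher in lactotropes in each pair (1.98 ± 1.05 against 3.30 ± 0.963 FPKM), and the groups overlapped for both receptors. The type I receptors of activin were low: Acvr1b did not exceed 0.783 FPKM in any library, and Acvr1c reached 0.948 and 3.16 FPKM in the replicate 1 libraries and at most 0.141 FPKM elsewhere. Bmpr2, the BMP type II receptor, did not exceed 0.877 FPKM and Bmpr1b did not exceed 0.405 FPKM.

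Tgfbr3 encodes betaglycan, a co-receptor that presents TGF-beta and inhibin. It measured 10.3, 1.33 and 1.96 FPKM in the somatotrope and 5.34, 0.924 and 1.13 FPKM in the lactotrope libraries, 1.93, 1.44 and 1.73 times higher in somatotropes in the 3 pairs. As for Inhbb, the ratio was steady within pairs and the groups overlapped. Bambi, a pseudoreceptor without a kinase, had no common direction, at 0.568 to 4.25 FPKM in somatotropes and 0.552 to 2.07 FPKM in lactotropes.

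The 5 receptor and common Smads were all measured in both cell types, with Smad4 as the most abundant. Smad4 measured 22.9, 8.85 and 12.9 FPKM in the somatotrope libraries against 15.8, 10.6 and 4.35 FPKM in the lactotrope libraries, a log2 difference of 0.55 (SE 0.66, limma adjusted p = 1.00) that was 0.09 without lactotrope 3. Smad1, of the BMP branch, stood at 16.7, 6.58 and 2.23 FPKM against 12.3, 7.36 and 1.18 FPKM. Its branch partner Smad5 was lower, at 0.154 to 7.31 FPKM in somatotropes and from a listed 0 to 4.50 FPKM in lactotropes. Both replicate 1 libraries were above the other 4 for each of the 5 Smads, as for 57.7% of all tested genes. After median-ratio scaling this held only for Smad5 (23.5% of all tested genes).

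The BMP-branch Smads outweighed the TGF-beta and activin branch in most libraries, and this balance also followed the replicates. Smad1 and Smad5 together made up 42.5%, 38.2% and 12.9% of the summed FPKM of the 5 Smads in the somatotrope libraries, against 43.6%, 39.5% and 17.4% in the lactotrope libraries. Smad2 and Smad3 together made up 16.8%, 18.1% and 17.0% in somatotropes and 15.4%, 13.1% and 18.4% in lactotropes. The 2 cell types of a pair thus had close shares, and replicate 3 of both types had the smallest share of BMP-branch Smads and the largest share of Smad4 (70.1% and 64.3%). Smad2 was higher in somatotropes in each pair, at 3.45 ± 1.24 against 2.18 ± 1.27 FPKM (SD, n = 3). The inhibitory Smads, which block receptor signalling, were low: Smad6 reached 3.42 FPKM in somatotrope 2 and Smad7 did not exceed 0.803 FPKM.

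The Id factors are helix-loop-helix proteins without a DNA-binding region. They hold E proteins away from DNA, and Id1 to Id3 are classical BMP-responsive genes. RefSeq start-site sequences (GRCm38.p6) were matched for 29 of the 40 genes. The 250 bases before the start are shown for Id2, Id3 and Id4, since Id1 was not among the genes with a matched sequence. Capitals mark GGCGCC, a GC-rich Smad1 and Smad5 site that reads the same on both strands. They also mark GTCT or its reverse complement AGAC, the half-site of Smad3 and Smad4. The windows are chr12:25096093-25096342 on the minus strand for Id2, chr4:136143572-136143821 on the plus strand for Id3 and chr13:48260866-48261115 on the plus strand for Id4, each read 5′ to 3′ along the gene.
Id2: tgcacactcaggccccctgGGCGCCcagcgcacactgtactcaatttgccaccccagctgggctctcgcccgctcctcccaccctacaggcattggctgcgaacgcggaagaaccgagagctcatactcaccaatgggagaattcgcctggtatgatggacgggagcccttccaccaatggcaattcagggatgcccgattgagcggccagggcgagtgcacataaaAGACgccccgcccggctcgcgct
Id3: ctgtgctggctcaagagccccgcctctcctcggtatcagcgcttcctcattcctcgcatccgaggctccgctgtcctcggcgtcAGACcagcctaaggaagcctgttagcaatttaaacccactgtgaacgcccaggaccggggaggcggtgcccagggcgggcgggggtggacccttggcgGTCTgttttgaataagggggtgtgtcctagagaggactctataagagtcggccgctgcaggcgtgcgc
Id4: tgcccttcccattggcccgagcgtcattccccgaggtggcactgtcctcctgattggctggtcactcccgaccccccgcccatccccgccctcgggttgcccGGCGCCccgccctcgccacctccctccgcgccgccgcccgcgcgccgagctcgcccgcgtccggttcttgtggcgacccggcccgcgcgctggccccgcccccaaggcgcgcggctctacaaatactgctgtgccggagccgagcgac
GGCGCC began 231 bases before the start of Id2 and 148 bases before that of Id4, and was not in the Id3 window. The half-site began 23 bases before the start of Id2 and 166 and 68 bases before that of Id3, and was not in the Id4 window. GGCGCC was in 7 of the 29 windows (24.1%), those of Bmpr2, Grem1, Tgfbr1, Id2, Id4, Bmpr1a and Chrd, against 9.54% of the 27025 genes of the RefSeq table. Among genes tested for expression it was in 5 of 22 members (22.7%) and in 16.6% of 8179 genes. The half-site was in 82.8% of the 29 windows and 83.0% of the 27025.

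The 4 Id transcripts differed in how they lay between the cell types. Id2, on mm9 chromosome 12 from 25778664 to 25780957 on the minus strand, measured 17.3, 15.1 and 45.2 FPKM in the somatotrope libraries against 22.8, 42.7 and 71.9 FPKM in the lactotrope libraries. It was 1.32, 2.83 and 1.59 times higher in lactotropes in the 3 pairs, while somatotrope 3 lay above lactotropes 1 and 2. The log2 difference was -0.82 (SE 0.63, limma adjusted p = 1.00, 0.265 to 1.00 over the alternatives), and it was -0.43 without lactotrope 3 and -1.30 without somatotrope 3. Id4, on mm9 chromosome 13 from 48356796 to 48359405 on the plus strand, measured 5.87, 40.7 and 18.7 FPKM in the somatotrope libraries against 4.48, 10.8 and 1.84 FPKM in the lactotrope libraries. It was 1.31, 3.76 and 10.2 times higher in somatotropes in the 3 pairs, with lactotrope 2 above somatotrope 1. The log2 difference was 1.65 (SE 0.78, limma adjusted p = 1.00, 0.189 to 1.00 over the alternatives) and 1.03 without somatotrope 2.

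Id1 and Id3 had no common direction. Id3 measured 11.3, 21.3 and 61.2 FPKM in the somatotrope libraries against 9.94, 27.9 and 9.89 FPKM in the lactotrope libraries, a log2 difference of 0.77 (SE 0.70, limma adjusted p = 1.00) that rested on somatotrope 3 and was 0.13 without it. Id1 measured 2.25, 7.65 and 17.7 FPKM in the somatotrope libraries against 3.74, 9.42 and 8.28 FPKM in the lactotrope libraries, higher in lactotropes in pairs 1 and 2 and in somatotropes in pair 3. Id1 was below its other 4 values in both replicate 1 libraries, and somatotrope 3 had the highest value of both genes.

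**Figure D3:**
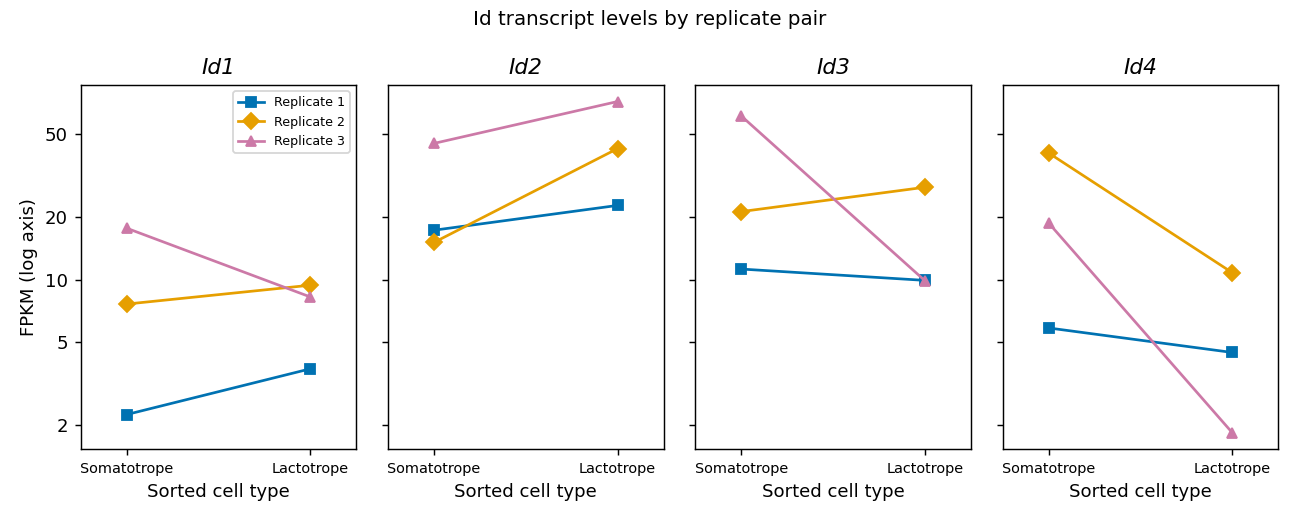
FPKM (log axis) of Id1, Id2, Id3 and Id4 in somatotropes and lactotropes, with 1 line and symbol per replicate pair. All 3 lines rise toward lactotropes for Id2 and fall toward lactotropes for Id4, while for Id1 and Id3 the lines run in both directions.

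The make-up of the Id pool differed within each pair. Id2 made up 47.2%, 17.9% and 31.7% of the summed Id FPKM in the somatotrope libraries, against 55.7%, 47.0% and 78.2% in the lactotrope libraries. Id4 made up 16%, 48.0% and 13.1% in somatotropes and 10.9%, 11.9% and 2.0% in lactotropes. The ratio of Id2 to Id4, which does not depend on how a library is scaled, was 2.95, 0.372 and 2.41 in somatotropes and 5.09, 3.95 and 39.1 in lactotropes, so that every lactotrope library lay above every somatotrope library. This ratio was chosen after its values were seen and is given without a test. The summed Id level was 36.7, 84.7 and 143 FPKM in somatotropes and 40.9, 90.8 and 91.9 FPKM in lactotropes, lowest in replicate 1 of both types.

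Markers of other pituitary cells moved with several of these genes. The 11 stem and folliculostellate markers, from non-hormone cells of the gland, summed to 340, 2704 and 1358 FPKM in somatotropes 1 to 3 and to 194, 862 and 175 FPKM in lactotropes 1 to 3. Their sum was higher in somatotropes 1.75, 3.14 and 7.76 times in the 3 pairs, and 9 of the 10 tested markers were higher in somatotropes in all 3 pairs, with Fxyd1 and S100b listed at 0 and Sox2 at 0.0041 FPKM in lactotrope 3. Mia1 and Aldoc were the most abundant of the list, at 127 to 1432 FPKM and 67.6 to 926 FPKM in somatotropes. Bmp6, Fstl1 and Id4 were, like this sum, highest in somatotrope 2 and next highest in somatotrope 3. These are the tested members with the largest differences to the somatotrope side, so that match follows in part from their choice. In total, 8 of the 30 tested members were highest in somatotrope 2 (12.8% of all tested genes). The part of these cells in the Bmp6, Fstl1 and Id4 values was not tested.

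Leukocyte and macrophage markers stood beside Tgfb1, Tgfbr1 and Id2. The 12 markers summed to 81.7, 1359 and 949 FPKM in somatotropes and to 347, 4201 and 1974 FPKM in lactotropes, and all 12 were higher in lactotropes in all 3 pairs, with none at 0. C1qb and C1qc, complement genes of macrophages, led the list, at 81 to 973 and 65 to 832 FPKM in lactotropes. Tgfb1, Tgfbr1 and Tgfbr2 had their highest value in lactotrope 2, the library with the highest marker sum, whereas Id2 was highest in lactotrope 3. They were the only 3 tested members highest in lactotrope 2 (7.65% of all tested genes), so naming them fixes that match. In the other libraries the receptors did not follow the sum: lactotrope 3, with the next highest sum, had the lowest Tgfbr2 at 2.49 FPKM and Tgfbr1 at 5.48 FPKM, and somatotrope 1, with the lowest sum, had Tgfbr1 at 13.7 and Tgfbr2 at 9.19 FPKM. Tgfb1 had the order of the sum in every library. From lowest to highest it was 0.0326 FPKM in somatotrope 1, 0.433 in lactotrope 1 and 0.665 in somatotrope 3. It was then 2.10 FPKM in somatotrope 2, 2.13 in lactotrope 3 and 3.80 in lactotrope 2. The part of leukocytes in these values was not tested. The 9 endothelial markers summed to 1.55 to 3.74 FPKM in somatotropes and to between a listed 0 and 4.69 FPKM in lactotropes. Id1 was at 2.25 to 17.7 FPKM and Id3 at 9.89 to 61.2 FPKM, and the part of endothelial cells in these values was not tested.

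**Figure D4:**
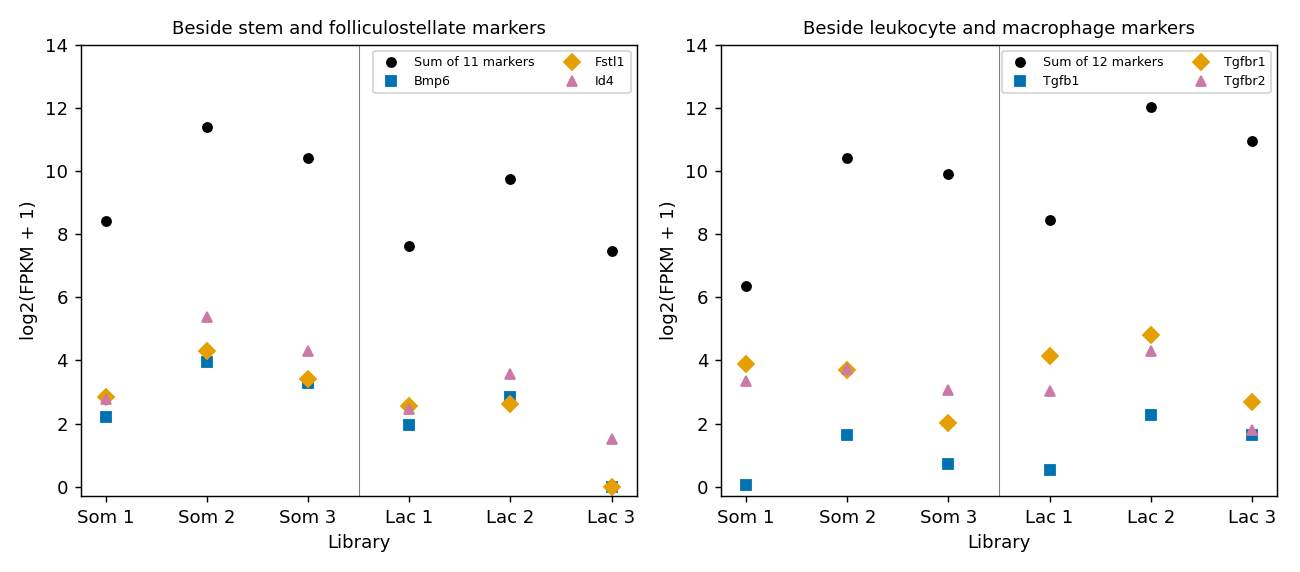
log2(FPKM + 1) in each library of the summed stem and folliculostellate markers with Bmp6, Fstl1 and Id4 (left), and of the summed leukocyte and macrophage markers with Tgfb1, Tgfbr1 and Tgfbr2 (right). On the left the sum and the 3 genes are all highest in Som 2. Those 3 have the largest differences to the somatotrope side of the tested members, so their match follows in part from their choice. On the right the sum and the 3 genes are all highest in Lac 2, while Tgfbr2 is lowest in Lac 3, where the sum is next highest. The 3 genes on the right are the only tested members highest in Lac 2, so that match follows from their choice. Tgfb1 has the order of the sum in every library.

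The library in which a gene was highest varied within several roles, and whether it differed between roles was not tested. Of the 30 tested genes, 12 were highest in somatotrope 1, a share close to the 37.5% of all tested genes. Among these 12 were all 5 receptor and common Smads, Bmpr1a, Acvr2a and Tgfbr3. Another 8 were highest in somatotrope 2 (12.8% of all tested genes), and of these Tgfb2, Tgfb3, Bmp6, Bmp7 and Inhbb are ligands. The ligand genes Tgfb1, Inha and Inhba were highest in other libraries. In lactotrope 1 there were 2, Inha and Nog, against 32.9% of all tested genes. Somatotrope 3 was highest for Inhba, Id1 and Id3 (5.2%), lactotrope 2 for Tgfb1, Tgfbr1 and Tgfbr2 (7.65%) and lactotrope 3 for Acvr2b and Id2 (3.98%). After median-ratio scaling, somatotrope 1 was highest for 8 genes (19.6%) and no longer for Smad2 and Smad4, somatotrope 2 for 9 (18.6%), somatotrope 3 for 4 (13.4%), lactotrope 1 for Inha alone (14.7%), lactotrope 2 for the same 3 (13.2%) and lactotrope 3 for 5 (20.6%).

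Both replicate 1 libraries were above the other 4 for 13 genes (57.7% of all tested genes) and below them for Tgfb1 and Id1 (4.49%). After median-ratio scaling they were above for 6 genes (23.5%), which were Inha, Fstl3, Bmpr1a, Acvr2a, Tgfbr3 and Smad5, and below for 5 (17.7%), which were Tgfb1, Inhbb, Id1, Id2 and Id3. On that scale the replicate 1 value lay below the mean of replicates 2 and 3 in both cell types for 13 genes (35.0% of all tested genes), among them all 3 TGF-beta ligands, Bmp6, Bmp7, both activin beta subunits and all 4 Id factors.

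Lactotrope 3 listed 8 of the 30 tested genes at 0, each of them above 0 in the other 5 libraries (12.8% of all tested genes). They were Bmp6, Bmp7, Inhba, Fstl1, Fstl3, Smad3, Smad5 and Smad6, and 5 of them are among the 12 genes higher in somatotropes in all 3 pairs. In pairs 1 and 2, where no such 0 enters, Bmp6 was 1.27 and 2.38 times and Fstl1 1.26 and 3.59 times higher in somatotropes.

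A further 89 genes of the pathway were listed by role, of which 42 were tested. None passed limma's test in any of the 4 fits given for the members. At an unadjusted p under 0.05 there was 1 without the block, Cited2, a co-regulator that can act with Smads, higher in lactotropes (0.455% of all tested genes). It measured 17.7, 6.28 and 31.8 FPKM in lactotropes against 4.72, 1.82 and 2.94 FPKM in somatotropes. With the replicate block there were 6 on the somatotrope side, Ltbp4, Nbl1, Twsg1, Dcn, Msx1 and Hey1 (7.17%), and 2 on the lactotrope side, Itgav and Cited2 (3.75%). With weighted libraries there were 5 (5.64%) and 4 (5.23%), and with both 3 (6.54%) and 3 (4.97%). Cited2 was also the only one with all lactotropes above all somatotropes (1.15% of all tested genes), and Nedd4l, a ubiquitin ligase that acts on Smads, the only one with the opposite (2.51%). The 42 had a median log2 difference of 0.16, beside 0.18 over all tested genes. In all 3 pairs, 6 of them were higher in somatotropes (22.9% of all tested genes) and 3 in lactotropes (11.2%).

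By role, the other ligands were low: 17 of 20 stayed under 1 FPKM in every library and 7 were listed at 0 in every library. Among activation and latency proteins, Itgav, an integrin subunit that helps release latent TGF-beta, was higher in lactotropes in each pair, at 5.21, 2.67 and 1.55 FPKM against 1.59, 0.987 and 0.494 FPKM. Ltbp4, a latent TGF-beta binding protein, reached 41.6 FPKM in somatotrope 2. Of the 7 tested antagonists, 1 was higher in somatotropes in all 3 pairs, Twsg1, a BMP-binding modulator, at 44.5, 25.3 and 14.3 FPKM in somatotropes and 31.8, 10.8 and 5.37 FPKM in lactotropes. Msx1, a homeobox gene known to respond to BMP, measured 20.2, 201 and 68.6 FPKM in the somatotrope and 19.8, 48.1 and 21.8 FPKM in the lactotrope libraries, highest like Id4 in somatotrope 2. The E proteins that Id factors bind, Tcf3, Tcf4 and Tcf12, summed to 35.8, 15.02 and 14.5 FPKM in somatotropes and 32.4, 12.98 and 6.90 FPKM in lactotropes. Each of them was above the other 4 libraries in both replicate 1 libraries, as were 57.7% of all tested genes. After median-ratio scaling only Tcf12 remained so (23.5%), and Tcf3 was below the other 4 in both replicate 1 libraries (17.7%).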

How the data were processed

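Per the labels' protocols, polyadenylated RNA of the sorted cells went through NuGen Ovation V2 amplification and Illumina sequencing. The submitters' processing notes list build mm9 and the tools TopHat, edgeR and bcl2fastq 2.17.1.14, without saying how fragments were counted. The values are FPKM as the authors deposited them, in 30399 rows, and 889 rows without a symbol were left out. A gene with several rows took the row of highest mean. FPKM are not counts, so no count model was run.

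The test used log2(FPKM + 1) of 11642 genes whose mean reached 1 FPKM. It was limma 3.58.1 (R 4.3.3), two-sided with a variance trend on intensity, Benjamini-Hochberg adjustment over all genes, a threshold of 0.05 and no block. On this scale a low gene's fold change comes out too small. Libraries with the same number in their titles moved together around the group means (correlation over genes 0.763, 0.613 and 0.341), so values are also given by pair. The code was tested on simulated data. The members and gene lists were chosen with earlier results of these data known. All 40 members could be named. Each other pathway list gave up to 3 genes by smallest p, and each marker list its 2 most abundant genes. Fshb, Gnrhr, Nr5a1, Foxl2, Fxyd1, S100b, Sox2 and Tgfbi fall outside that rule and were chosen after their values were seen. Windows before gene starts came from RefSeq on GRCm38.p6 and were not placed on mm9.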

Additional observations from a re-analysis of the deposited data

How the results depend on the processing

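No member passed limma's test under any of the 21 alternatives, which changed the pseudocount, the filter, the scaling, the rows summed, the weights, the variance trend, the block or the libraries. The replicate numbers pair the libraries. With the replicate block the median member difference stayed at 0.332, with 0 members, 0 other pathway genes and 0 of all genes called. Array weights called 9 of all genes, and the replicate block with array weights 43. With libraries left out, the calls over all genes ran from 0 to 209 (the blocked fit without replicate 3). Over other pathway genes they ran from 0 to 2 (Tgfbi and Cited2, in the blocked fit of pairs 1 and 2). The median member difference ran from -0.095 (without somatotrope 1) to 0.688. The count of members with groups that did not overlap ran from 1 to 10 of 30. It was 1 without somatotrope 2 (7.11% of all tested genes) and 10 without lactotrope 2 (9.85%). That last count was 0 after quantile normalization and 0 with equal totals without Gh and Prl. With a filter at 5 FPKM, 7 members had one sign in all pairs against 18, since fewer were tested. That count was 15 after median-ratio scaling, 15 after quantile normalization and 16 with equal totals without Gh and Prl. Of 9 differences printed, 7 kept their sign in every alternative. That of Id3 ran from -0.10 to 1.34 and that of Inha from -1.87 to 0.20 with libraries left out. The count of one sign in all 3 pairs has no value with a library left out, nor do the block and weights alter it or the count of groups that did not overlap. The unknown depth of 4 libraries limits every value near 0.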
